A study of Mus musculus with 2 samples.

Results

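The hyaluronan, aggrecan and versican system was examined through 10 genes, chosen by symbol from the 24421 rows of the count table. They were *Acan* and *Vcan*, which encode hyaluronan-binding proteoglycans, *Hapln3* and *Hapln4*, which encode link proteins, and the hyaluronan synthase genes *Has1*, *Has2* and *Has3*. The others were the hyaluronidase gene *Hyal2* and the genes of the hyaluronan binders CD44 and TNFAIP6. All 10 had a row in the table, and all 10 had at least 10 reads in at least 1 library.

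Hyaluronan is a long unsulfated glycosaminoglycan that synthases in the plasma membrane extrude directly into the matrix. In cartilage, many aggrecan molecules bind a hyaluronan strand through link proteins, and these charged aggregates hold the water that lets the tissue bear load. Versican forms similar aggregates in skin and other soft connective tissues, and cells bind hyaluronan through surface receptors such as CD44.

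The RNA-Seq data came from newborn mice and compared primary chondrocytes of rib cartilage with primary dermal fibroblasts of dorsal skin, at 1 library each. No genotype or treatment was given for either library, both cell types were released with collagenase and resuspended in serum medium, and the study used chondrocytes up to the second passage. The counted reads summed to 18788599 in chondrocytes and 17563724 in the other library. With 1 library per cell type, no difference has a replicate check. The values are read counts, CPM (counts per 1000000 reads after TMM scaling between the libraries), and folds with 95% counting intervals, which cover counting error only.

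The labels were checked against marker genes. All 12 chondrocyte markers were over 2-fold higher in the chondrocyte library, where they summed to 111303 CPM, against 76.4 CPM in dermal fibroblasts, which had 0 reads of *Col2a1* and *Matn1*. Of 12 dermal fibroblast markers, 11 were over 2-fold higher in dermal fibroblasts, and the list summed to 51145 CPM there and 6811 CPM in chondrocytes, with no marker at 0 reads in either library. Skeletal muscle markers summed to 1959 CPM in chondrocytes and 1452 CPM in dermal fibroblasts. Of these 10 markers, 3 were over 2-fold higher in chondrocytes, beside 11.9% of all genes with at least 10 reads in either library. Among the 3, *Ttn* stood near the threshold, at 2.14-fold.

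The 10 genes took 0.857% of the chondrocyte reads and 0.122% of the dermal fibroblast reads. Without *Acan* the order turned, at 0.0690% and 0.122%. *Acan*, *Hapln3* and *Has2* were over 2-fold higher in chondrocytes, which is 3 of the 10 genes, against 11.9% of the 14291 genes with at least 10 reads in either library. *Vcan* and *Tnfaip6* were over 2-fold higher in dermal fibroblasts, which is 2 of the 10, against 16.2% of the 14291 genes. The whole counting interval lay beyond 2-fold for each of the 5, as it did for 7.25% of the genes tested in the direction of chondrocytes and 10.8% in that of dermal fibroblasts. *Hapln4*, *Has1*, *Has3*, *Hyal2* and *Cd44* lay within 2-fold. The median log2 fold of the 10 genes, chondrocytes minus dermal fibroblasts, was -0.11, beside 0.00 for all genes tested. In whole cultures, fewer cells of a type and less RNA per cell cannot be told apart.

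**Figure D1:**
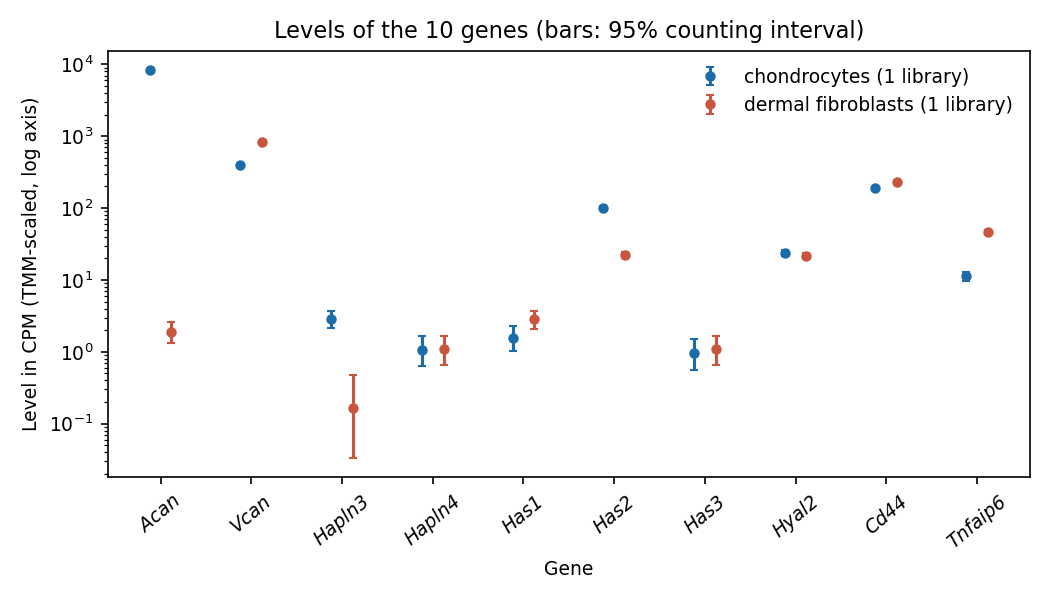
Level of each of the 10 genes in CPM on a log axis, with 1 point for the chondrocyte library and 1 for the dermal fibroblast library and bars for the 95% counting interval. *Acan* lies at 8280 CPM in chondrocytes and 1.90 CPM in dermal fibroblasts, while *Hapln4*, *Has1*, *Has3* and *Hyal2* have overlapping bars.

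Of the 5 genes that passed 2-fold, *Acan*, *Hapln3*, *Vcan* and *Tnfaip6* have an entry in the RefSeq promoter table of GRCm38.p6, and the 250 bases before the transcript start that the table uses are shown 5′ to 3′ on the strand of the gene because these genes differed between the libraries. The *Acan* and *Tnfaip6* windows end where the RefSeq span of the gene begins, while the *Hapln3* and *Vcan* windows lie inside the span, since the table uses a start downstream of the outermost one. Capitals mark any of 6 short motifs found on either strand. Of these, ACAAAG is a core that SOX proteins can bind, ACAATG is a variant of that core and so is AACAAT. The others were TGANTCA for AP-1 factors, TGACGTCA for the cyclic AMP response element, and TATAAA for the TATA box.
Acan promoter (chr7:79052976-79053225, plus strand): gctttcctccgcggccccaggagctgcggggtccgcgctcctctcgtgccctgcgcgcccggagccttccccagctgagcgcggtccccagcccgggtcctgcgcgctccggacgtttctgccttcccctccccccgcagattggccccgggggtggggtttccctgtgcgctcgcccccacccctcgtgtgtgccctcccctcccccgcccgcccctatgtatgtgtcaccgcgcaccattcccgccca
Hapln3 promoter (chr7:79131019-79131268, minus strand): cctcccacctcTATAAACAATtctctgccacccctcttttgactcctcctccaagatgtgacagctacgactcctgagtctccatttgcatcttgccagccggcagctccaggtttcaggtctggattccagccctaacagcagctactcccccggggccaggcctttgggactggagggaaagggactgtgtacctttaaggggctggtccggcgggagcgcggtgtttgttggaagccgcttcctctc
Vcan promoter (chr13:89742513-89742762, minus strand): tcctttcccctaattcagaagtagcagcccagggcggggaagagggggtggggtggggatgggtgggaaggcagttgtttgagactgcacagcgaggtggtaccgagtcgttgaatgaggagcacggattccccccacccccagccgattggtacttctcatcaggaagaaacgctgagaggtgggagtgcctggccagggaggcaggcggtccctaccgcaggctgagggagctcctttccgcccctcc
Tnfaip6 promoter (chr2:52037863-52038112, plus strand): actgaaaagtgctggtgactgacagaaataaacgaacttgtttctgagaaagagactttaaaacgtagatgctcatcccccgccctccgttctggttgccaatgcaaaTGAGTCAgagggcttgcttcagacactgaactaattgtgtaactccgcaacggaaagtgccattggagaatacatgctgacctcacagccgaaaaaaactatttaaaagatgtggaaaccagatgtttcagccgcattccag
The *Hapln3* window held TATAAA at bases 12 to 17 and AACAAT at bases 16 to 21, which overlap. Both lie at the end of the window far from the transcript start, and whether TATAAA acts as a TATA box there was not tested. In all, 12.3% of 32536 windows of this length held TATAAA and 9.35% held AACAAT. The *Tnfaip6* window held TGANTCA at bases 109 to 115, as 6.73% of all windows did. None of the 6 motifs was in the *Acan* or *Vcan* window. Of all windows, 16.5% held ACAAAG, while 10.5% held ACAATG. The *Has1* window, which is not shown, held TGACGTCA at bases 168 to 175, against 1.56% of all windows, and the windows of *Hyal2* and *Cd44* held none of the 6. G and C made up 74.4% of the *Acan* window and 44.4% of the *Tnfaip6* window, beside a median of 52.4% and a 90th percentile of 69.2% over all windows. *Hapln4*, *Has2* and *Has3* had no entry.

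Aggrecan is the main proteoglycan of cartilage. *Acan* (GRCm38 chromosome 7, 79053226 to 79115099) had 148105 reads in chondrocytes and 35 in dermal fibroblasts. It was 4365-fold higher in chondrocytes (interval 3138 to 6267). Per kilobase of exon, its level of 1126 CPM in chondrocytes stood at percentile 99.8 of the 13173 genes with a length, and its level of 0.258 CPM in dermal fibroblasts at percentile 7.41. *Acan* made up 92.0% of the reads of the 10 genes in chondrocytes and 0.163% in dermal fibroblasts.

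Versican is the large hyaluronan-binding proteoglycan of the dermis and of immature connective tissue. *Vcan* (chromosome 13, 89655309 to 89743027) had 7048 reads in chondrocytes and 15399 in dermal fibroblasts. It was higher in dermal fibroblasts by 2.12-fold (interval 2.06 to 2.18), where it made up 71.8% of the reads of the 10 genes, against 4.38% in chondrocytes. Scaling to *Actb* brought this fold to 1.95, under the threshold. The transcripts of versican differ in the large exons that carry its chondroitin sulfate, and counts per gene do not separate them. The fibroblast markers *Col1a1*, *Col3a1* and *Pdgfra* were also present in the chondrocyte library, at 39143, 32090 and 2096 reads, and their part in the *Vcan* reads there was not tested.

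Set against each other per kilobase of exon, *Acan* and *Vcan* changed places between the libraries. In chondrocytes *Acan* stood 41.3-fold above *Vcan* (interval 40.4 to 42.3) and took 97.6% of the reads per kilobase of the pair. In dermal fibroblasts *Vcan* stood 224-fold above *Acan* (interval 161 to 321) and took 99.6%. The length of *Vcan* was 14467 bases as a union of exons but 12429 as the longest transcript, while that of *Acan* was 7355 by both. The longest transcript would lower the ratio in chondrocytes and raise that in dermal fibroblasts. The intervals do not cover this choice.

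**Figure D2:**
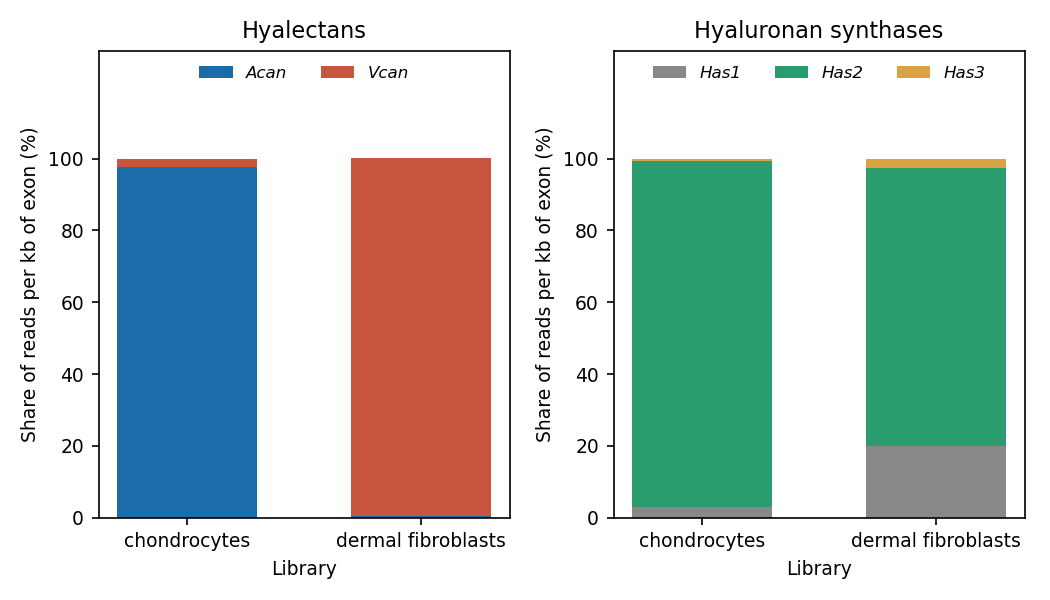
Share of the reads per kilobase of exon, in percent, that each hyalectan gene (left) and each hyaluronan synthase gene (right) takes in the chondrocyte and the dermal fibroblast library. *Acan* takes 97.6% in chondrocytes and *Vcan* 99.6% in dermal fibroblasts, and *Has2* takes 96.3% and 77.4%.

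Link proteins clamp a hyalectan to hyaluronan. *Hapln3* (chromosome 7, 79117027 to 79133173) had 51 reads in chondrocytes and 3 in dermal fibroblasts, a ratio of 17.5 with an interval from 5.67 to 87.8. With a floor of 10 counts the fold was 5.26. At 0.861 CPM per kilobase it stood at percentile 18.7 in chondrocytes, among the 13173 genes tested that had a length. The fold rests on few reads. *Hapln4* (chromosome 8, 70083529 to 70090862), known from the brain, had 19 reads in chondrocytes and 20 in dermal fibroblasts. Its ratio of 0.980, chondrocytes over dermal fibroblasts, had an interval from 0.495 to 1.93, and its direction changed with the scaling.

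Each hyalectan gene of the mouse lies beside a link protein gene, with no other protein-coding gene between them in RefSeq, and the pairs differed in how their members compared. *Acan* and *Hapln3* are 1927 bases apart on opposite strands, facing each other with their 3′ ends, and both were over 2-fold higher in chondrocytes. *Vcan* and *Hapln1* are 43476 bases apart and differed in opposite directions. *Hapln1*, which encodes the cartilage link protein and is not one of the 10 genes, had 25199 reads in chondrocytes and 2 in dermal fibroblasts, a ratio of 12997 with an interval from 3597 to 107324. Its fold was 8664 with the floor of 3 counts used for calls and 2599 with a floor of 10. Of *Bcan* and *Hapln2*, 18382 bases apart, *Bcan* had 26 and 2 reads (ratio 13.4, interval 3.36 to 117) and *Hapln2* had 0 in both libraries. The fold of *Bcan* was 8.94 with the floor of 3 counts and 2.68 with a floor of 10. *Ncan*, 2222 bases from *Hapln4*, had 2 reads in chondrocytes and 0 in dermal fibroblasts. Brevican and neurocan, encoded by *Bcan* and *Ncan*, are the hyalectans of the brain. The floor of 3 reads, taken as the limit for a count of 0, stands at 0.168 CPM in chondrocytes and 0.163 CPM in dermal fibroblasts, and the upper bound of the exact Poisson interval of 0 reads at 0.206 and 0.200 CPM.

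The genes next to these pairs were also counted. *Mfge8*, which lies 594 bases from *Hapln3* and encodes a secreted glycoprotein, had 4367 reads in chondrocytes against 5366 and lay within 2-fold. *Edil3*, on the far side of *Hapln1* from *Vcan*, had 1696 and 173 reads and was 10.1-fold higher in chondrocytes (interval 8.64 to 11.9). The annotated spans of *Acan* and *Hapln3* do not overlap in GRCm38, and whether the reads were counted by strand is not given in the sources used here.

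**Figure D3:**
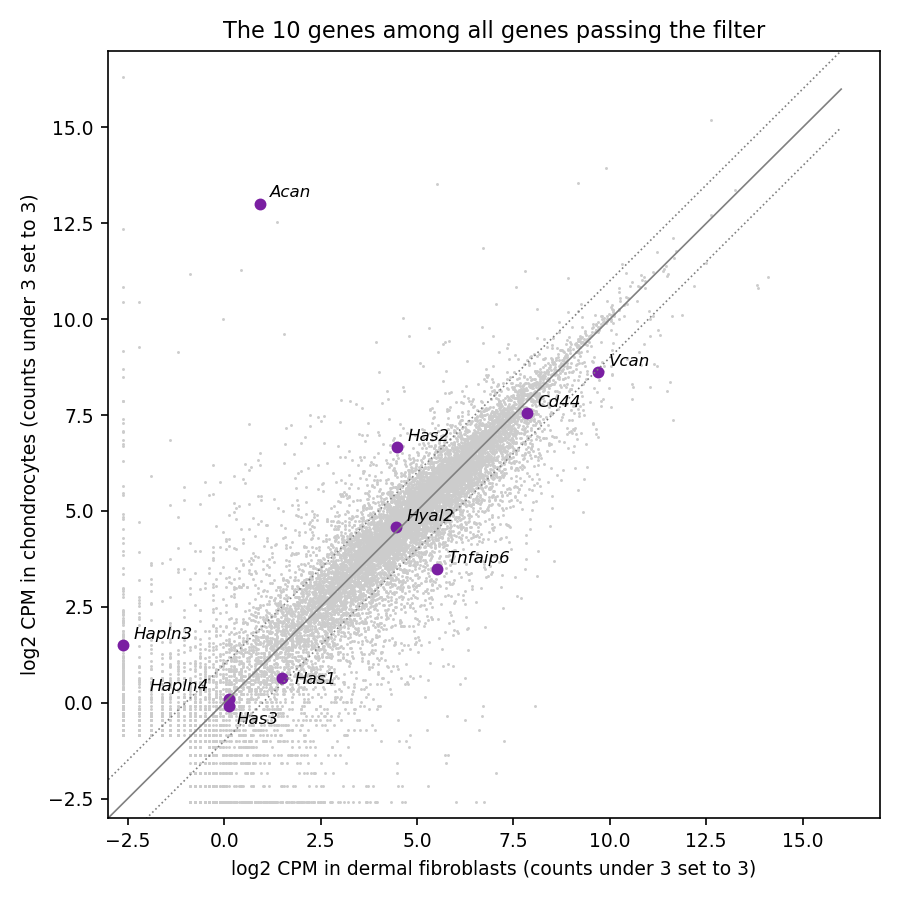
Level of each gene in log2 CPM in dermal fibroblasts (horizontal axis) and chondrocytes (vertical axis), with the 14291 genes tested in grey and the 10 genes in purple. The solid line marks equal levels and the dotted lines 2-fold, and *Acan*, *Hapln3* and *Has2* lie above the upper dotted line while *Vcan* and *Tnfaip6* lie below the lower one.

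The hyaluronan synthases join glucuronic acid and N-acetylglucosamine from their UDP sugars. *Has2* (chromosome 15, 56665627 to 56694546), the synthase needed for heart and limb development, had 1816 reads in chondrocytes and 410 in dermal fibroblasts. It was 4.57-fold higher in chondrocytes (interval 4.10 to 5.10), and every scaling tried gave a fold between 4.14 and 4.95. *Has1* (chromosome 17, 17833691 to 17855589) had 28 and 52 reads, a ratio of 1.80 in favour of dermal fibroblasts (interval 1.12 to 2.96) that did not pass 2-fold. *Has3* (chromosome 8, 106870242 to 106882902) had 17 and 20 reads, a ratio of 1.14 in favour of dermal fibroblasts with an interval from 0.567 to 2.32.

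*Has2* was the main synthase transcript in both libraries. Per kilobase of exon it took 96.3% of the synthase reads in chondrocytes (interval 95.1 to 97.3) and 77.4% in dermal fibroblasts (interval 72.7 to 81.7). *Has1* took 3.01% in chondrocytes (interval 2.02 to 4.31) and 19.9% in dermal fibroblasts (interval 15.4 to 24.9), and these intervals do not overlap. *Has3* took 0.646% (interval 0.377 to 1.03) and 2.71% (interval 1.65 to 4.16). The antisense RNA *Has2os*, whose span shares 4517 bases with that of *Has2*, had 12 reads in chondrocytes and 4 in dermal fibroblasts. Its ratio of 3.09 had an interval from 0.938 to 13.2. Where exons of both genes overlap, reads cannot be told apart without the strand, and overlap of exons was not examined.

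The substrates of the synthases, UDP-glucuronic acid and UDP-N-acetylglucosamine, come from 2 short pathways, which also feed the synthesis of other glycans. Of the 8 genes listed for them, 4 were over 2-fold higher in chondrocytes and 1 in dermal fibroblasts, beside 11.9% and 16.2% of all genes tested. The other 3 lay within 2-fold, and the median log2 fold of the list was 0.94. *Ugp2* and *Ugdh*, the enzymes that lead to UDP-glucuronic acid, were 2.04-fold and 2.16-fold higher in chondrocytes. *Gfpt1* and *Gfpt2*, which open the hexosamine pathway, were 2.22-fold and 2.01-fold higher. These folds stood close to the threshold, and with library totals in place of TMM only that of *Gfpt1* stayed over 2-fold, at 2.02. *Uap1*, which makes UDP-N-acetylglucosamine, had 1075 reads in chondrocytes and 1211 in dermal fibroblasts, while its relative *Uap1l1* had 492 and 4530 and was 8.93-fold higher in dermal fibroblasts.

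Hyaluronidases cut hyaluronan. *Hyal2* (chromosome 9, 107567873 to 107572778), which encodes an enzyme anchored at the cell surface, had 430 reads in chondrocytes and 403 in dermal fibroblasts. The ratio of 1.10, chondrocytes over dermal fibroblasts, had an interval from 0.959 to 1.26, and scaling by library totals turned it to 0.997. Of 9 other genes of hyaluronan breakdown, 6 had at least 10 reads in a library. Among these, 0 were over 2-fold higher in chondrocytes and 2 in dermal fibroblasts, beside 11.9% and 16.2% of all genes tested. The other 4 lay within 2-fold, and *Hyal4*, *Hyal5* and *Spam1* had 0 reads in both libraries. The lysosomal hyaluronidase gene *Hyal1* had 120 and 149 reads, and per kilobase *Hyal2* stood 7.20-fold above it in chondrocytes and 5.44-fold in dermal fibroblasts. *Cemip*, which encodes a secreted protein needed for hyaluronan breakdown by dermal fibroblasts, had 360 reads in chondrocytes against 918 in dermal fibroblasts, where it was 2.47-fold higher. *Hexa*, which encodes a lysosomal glycosidase, had 2172 and 6877 reads and was 3.07-fold higher in dermal fibroblasts. The transmembrane hyaluronidase gene *Tmem2* had 868 and 857 reads.

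*Has2* and *Cemip* differed in opposite directions. Per kilobase of exon, the level of *Has2* was 14.6-fold that of *Cemip* in chondrocytes (interval 13.0 to 16.4). In dermal fibroblasts it was 1.29-fold (interval 1.14 to 1.45). The length of *Cemip* was 12232 bases as a union of exons but 7111 as the longest transcript. That of *Has2* was the same by both measures, so the longest transcript would lower both ratios. The intervals do not cover this choice. In dermal fibroblasts *Cemip* had more reads than *Has2*, 918 against 410, and which stood higher per kilobase there depends on the length used.

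CD44 is the widespread cell surface receptor of hyaluronan. *Cd44* had 3356 reads in chondrocytes and 4251 in dermal fibroblasts. The ratio was 1.23 in favour of dermal fibroblasts (interval 1.17 to 1.29) and lay within 2-fold, between 1.13 and 1.36 over the scalings. CD44 occurs with and without variant exons, which counts per gene do not separate. Of the 7 genes listed for its cytoskeletal linkers and sheddases, 1 was over 2-fold higher in chondrocytes and 1 in dermal fibroblasts. Over all genes tested, these shares were 11.9% and 16.2%. The other 5 listed genes lay within 2-fold. Among these, *Msn* and *Adam10* stood just under the threshold, 1.98-fold and 1.93-fold higher in dermal fibroblasts, and with library totals both passed it, at 2.18-fold and 2.13-fold. *Ezr*, the gene of the linker ezrin, was 2.45-fold higher in chondrocytes, and *Mmp14*, the gene of a membrane proteinase that can shed CD44, was 6.32-fold higher in dermal fibroblasts, with 4317 reads in chondrocytes and 28140 in dermal fibroblasts.

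Of 9 other genes of hyaluronan receptors and binders, 7 had at least 10 reads in a library. *Lyve1*, *Stab1*, *Layn* and *Tlr2* were over 2-fold higher in dermal fibroblasts, 0 were over 2-fold higher in chondrocytes, and *Hmmr*, *Habp4* and *Tlr4* lay within 2-fold. Over all genes tested, the shares past 2-fold were 16.2% in dermal fibroblasts and 11.9% in chondrocytes. *Lyve1*, the receptor of lymphatic endothelium and some macrophages, had 3 reads in chondrocytes and 83 in dermal fibroblasts, a ratio of 26.8 in favour of dermal fibroblasts. *Stab1*, a scavenger receptor of macrophages and sinusoidal endothelium, had 196 and 673 reads. *Layn*, which encodes the receptor layilin, had 280 and 696 reads and was 2.41-fold higher in dermal fibroblasts. Endothelial markers also moved in this direction, with 6 of 7 over 2-fold higher in dermal fibroblasts, summed levels of 15.1 and 46.5 CPM and none at 0 reads. The lymphatic endothelial markers summed to 3.75 and 5.69 CPM, with *Flt4* (15 and 53 reads) over 2-fold higher in dermal fibroblasts and *Prox1* at 52 reads in each library. Of 8 macrophage markers, 2 were over 2-fold higher in dermal fibroblasts, with summed levels of 110.3 and 173 CPM and none at 0. Keratinocyte markers summed to 8.95 CPM in chondrocytes and 258 CPM in dermal fibroblasts, with 6 of 8 over 2-fold higher in dermal fibroblasts and *Krtdap* and *Dsg3* at 0 reads in chondrocytes. The part of these cells in the values of the receptors and of *Cd44* was not tested.

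TNFAIP6, also called TSG6, is secreted during inflammation and ovulation and moves the heavy chains of inter-alpha-inhibitor onto hyaluronan. *Tnfaip6* (chromosome 2, 52038113 to 52056681) had 200 reads in chondrocytes and 851 in dermal fibroblasts. It was higher in dermal fibroblasts by 4.12-fold (interval 3.53 to 4.84), with folds from 3.81 to 4.55 over the scalings. Of the 7 genes listed around this reaction, 4 had at least 10 reads in a library, and these were mixed in direction. Among them, 2 were over 2-fold higher in chondrocytes and 1 in dermal fibroblasts, beside 11.9% and 16.2% of all genes tested. The remaining gene lay within 2-fold. *Ptx3*, whose product pentraxin binds TNFAIP6 in hyaluronan matrices, had 9459 reads in chondrocytes against 4556 and was 2.14-fold higher there, or 1.94-fold with library totals. The heavy chain gene *Itih2* had 167 and 5 reads and was 34.5-fold higher in chondrocytes (interval 14.5 to 107). *Itih4* had 2 and 22 reads, a ratio of 10.7 in favour of dermal fibroblasts (interval 2.62 to 93.6). *Itih5* had 373 and 454 reads and lay within 2-fold, and *Itih1* and *Itih3* had 0 in both libraries. *Ambp*, which encodes the light chain bikunin, had 1 read in each.

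Several ADAMTS proteinases cut aggrecan or versican in the extracellular matrix. Among the 7 listed, 5 passed 2-fold in favour of dermal fibroblasts and 0 in favour of chondrocytes, beside 16.2% and 11.9% of all genes tested, with a median log2 fold of -1.41. The whole interval lay beyond 2-fold for 4 of the 5. *Adamts5*, the main aggrecanase gene of mouse cartilage, had 971 reads in chondrocytes against 6223, and was 6.21-fold higher in dermal fibroblasts. *Adamts15* had 85 and 1432 reads and was 16.3-fold higher in dermal fibroblasts. *Adamts1* and *Adamts4* were 2.49-fold and 2.65-fold higher, and *Adamts8* had 2 and 11 reads, a ratio of 5.33 in favour of dermal fibroblasts with an interval from 1.16 to 49.5. With a floor of 10 counts *Adamts8* lay within 2-fold. *Adamts9* had 487 and 401 reads, and *Adamts20* had 39 in each library.

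**Figure D4:**
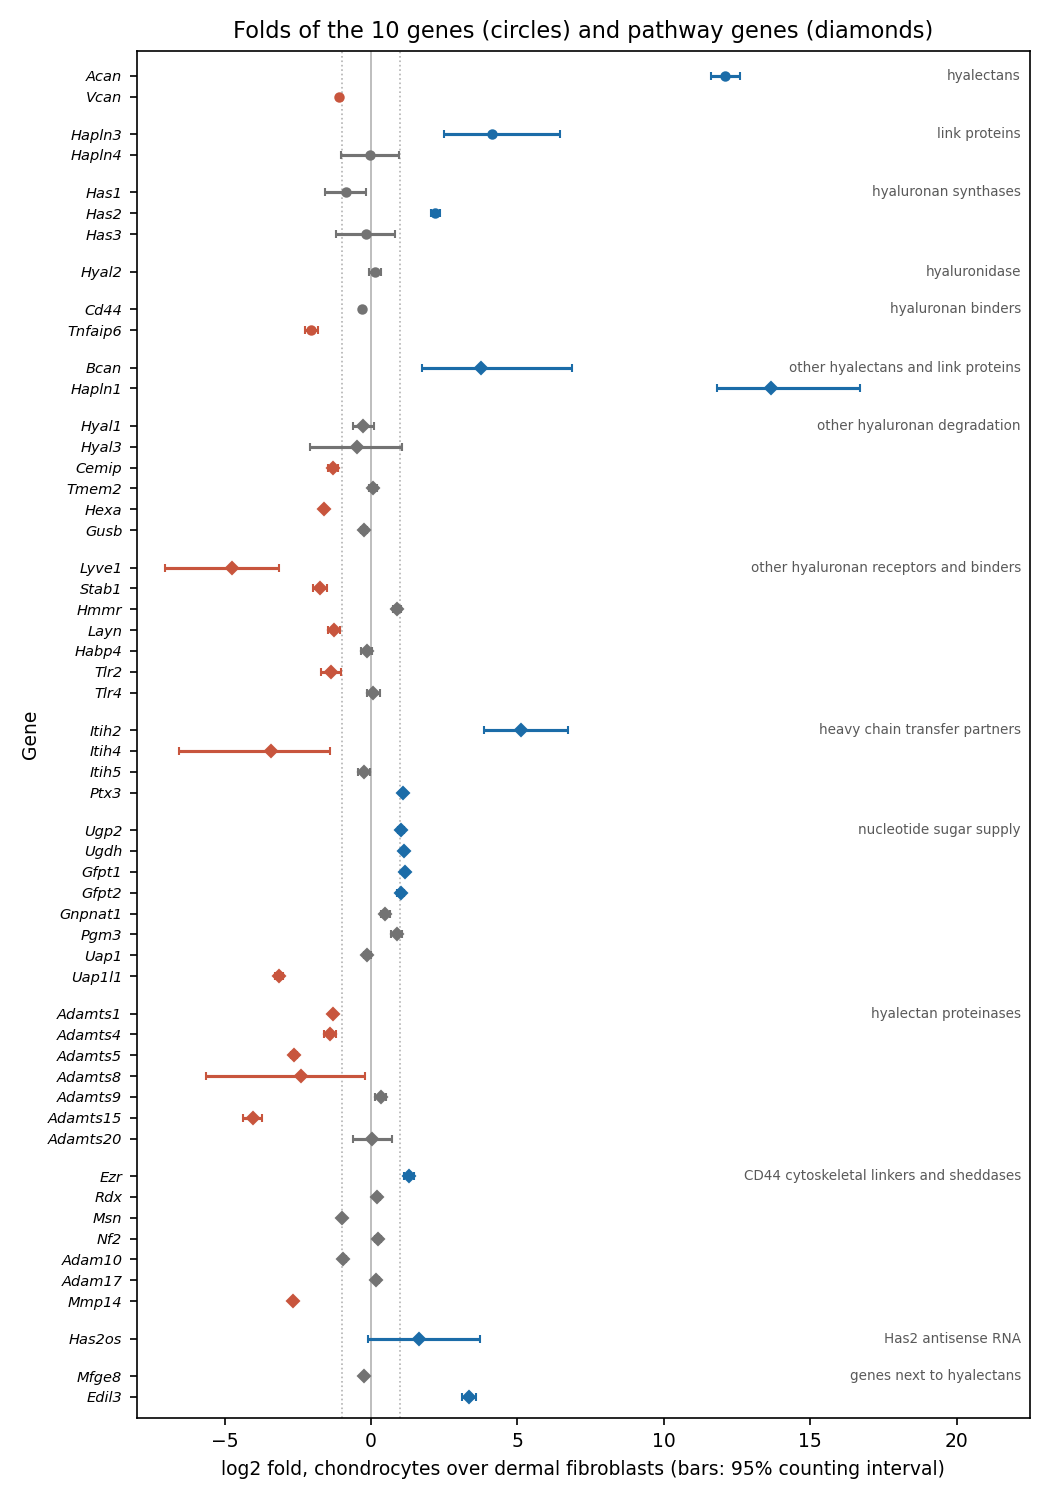
Log2 fold, chondrocytes over dermal fibroblasts, of the 10 genes (circles) and of the listed pathway genes with at least 10 reads in a library (diamonds), with bars for the 95% counting interval and dotted lines at 2-fold. Blue marks genes over 2-fold higher in chondrocytes, red genes over 2-fold higher in dermal fibroblasts and grey the rest, and 5 of the 7 ADAMTS genes are red.

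Of all 54 listed pathway genes, 44 had at least 10 reads in a library. Among these, 11 were over 2-fold higher in chondrocytes and 14 in dermal fibroblasts, beside 11.9% and 16.2% of all genes tested. The 54 include the antisense RNA *Has2os*, and also *Mfge8* and *Edil3*, which were listed only for their position. *Has2os* and *Edil3* were among the 11. With library totals 7 genes were over 2-fold higher in chondrocytes, where *Ptx3*, *Ugp2*, *Ugdh* and *Gfpt2* fell under the threshold, and 16 in dermal fibroblasts, where *Msn* and *Adam10* passed it.

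Per kilobase of exon, the order of the 10 genes differed between the libraries. In chondrocytes *Acan* led, followed by *Cd44* at 27.4 CPM per kilobase, *Vcan* at 27.2, *Has2* at 24.0, *Hyal2* at 12.7 and *Tnfaip6* at 6.54. The intervals of *Cd44* and *Vcan* overlapped there. In dermal fibroblasts the order was *Vcan* at 57.7 CPM per kilobase, *Cd44* at 33.6, *Tnfaip6* at 27.0, *Hyal2* at 11.5, *Has2* at 5.24 and *Has1* at 1.35, with no overlap between neighbours. *Hapln3*, *Has1*, *Hapln4* and *Has3* lay under 1 CPM per kilobase in chondrocytes, where *Hapln3* and *Has1* overlapped, as did *Hapln4* and *Has3*. In dermal fibroblasts *Hapln4*, *Acan*, *Has3* and *Hapln3* lay under 1 CPM per kilobase, and each overlapped the next.

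For 4 of the genes, those with the most similar levels in both libraries were sought by the distance in log2 CPM, which rests on 2 libraries only. The nearest to *Acan* were *Col11a2* at 0.66, *Col9a3* at 1.79 and *Col9a2* at 2.58, all cartilage collagen genes that also stood in the chondrocyte marker list. The nearest to *Vcan* were *Sptbn1*, *Msn* and *Ahnak*, at 0.06 to 0.07, and the nearest to *Has2* were *Sft2d2*, *Plekhh2* and *Metrn*, at 0.06 to 0.17. For *Cd44* they were *Ap2b1*, *Tnfrsf1a* and *Mlf2*, at 0.03 to 0.07.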

How the data were processed

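RNA-Seq was performed on 1 library per cell type from TruSeq stranded mRNA libraries sequenced in single-end mode. The authors mapped the reads to mm10 and deposited unscaled read counts, with 1 row for each gene symbol. The submitters' processing notes name CASAVA 1.8.2, TopHat2 2.0.13, Bowtie2 2.2.3 and SAMtools 0.1.19. The counting program, its annotation and its strand setting are not given in the sources used here.

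Counts of genes with at least 10 reads in either library were scaled with TMM factors (edgeR 4.0.16, R 4.3.3). Counts under 3 were set to 3 for calls, and genes with a fold over 2 were counted, the minimum fold the study used. The study also set a false discovery rate limit, which was not applied here. With 1 library per cell type no test was made. Ratios carry exact Clopper-Pearson 95% intervals and levels exact Poisson intervals (Python 3.11.15, scipy 1.17.1, pandas 2.3.3). With 1 library per cell type, the intervals cover counting error only. The reads carried no molecular identifiers, and the intervals take each read as separate, so repeated copies of a molecule would make them too narrow. Exon lengths were unions of GENCODE vM1 exons, an annotation of another build than mm10, and covered 92.2% of the genes tested. Positions are RefSeq spans of GRCm38.p6, and strands are those of GENCODE. Calculations were tested on simulated data.

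The genes and lists were chosen with earlier results of these data known. Named genes were the 10 genes, the listed pathway and marker genes, and the 3 nearest genes of *Acan*, *Vcan*, *Has2* and *Cd44* with at least 100 reads in a library. The mast cell list (summed 0.727 CPM in chondrocytes and 5.15 in dermal fibroblasts) and the synovial list (4.36 and 2.71) were not used further. 1 gene was left out of a pathway list and of its counts and is not reported here. Alternatives were 5 other scalings, among them DESeq2 1.42.0 size factors, other floors, a pseudocount, other filters, a stricter fold, the whole interval beyond 2-fold, and other lengths.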

Additional observations from a re-analysis of the deposited data

How the results depend on the processing

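The settings were varied singly. No paired analysis was possible because the design has a single library for each cell type. Of 80 folds of the 10 genes under 8 scalings, floors and a pseudocount, 75 stayed within the counting interval of the reported value, and *Vcan* and *Cd44* moved with library totals and *Actb*, as did *Hapln3* with a floor of 10 counts. Among the 46 pathway genes with a fold, 328 of 368 values stayed within the interval, and none of the called genes changed direction. A floor of 10 counts brought the folds, chondrocytes over dermal fibroblasts, of *Hapln1* to 2599, *Bcan* to 2.68, *Itih2* to 17.2, *Lyve1* to 0.124, *Itih4* to 0.469 and *Adamts8* to 0.938, since each has a count under 10. The number of the 10 genes over 2-fold higher in dermal fibroblasts went from 2 to 1 with *Actb*, where *Vcan* fell to 1.95-fold, and to 1 with a fold over 4. The pathway genes over 2-fold higher in chondrocytes went from 11 to 7 with library totals. A fold over 4 left 4 in chondrocytes, with *Edil3* among them, and 6 in dermal fibroblasts. Over all genes, 1694 and 2309 were over 2-fold higher in chondrocytes and in dermal fibroblasts. These counts became 982 and 1484 with at least 100 counts, 714 and 924 with a fold over 4, and 1036 and 1539 with the whole interval beyond 2-fold, since each of these rules removes genes by construction. Library totals shifted the median log2 fold to -0.14 and *Actb* shifted it to 0.12, and of all genes past 2-fold, 42.3% were on the chondrocyte side with TMM, 35.5% with totals and 47.8% with *Actb*. With the longest transcript as length, the share of *Acan* among hyalectan reads in chondrocytes went from 97.6% to 97.3% and that of *Vcan* from 2.36% to 2.74%. Without lengths these were 95.5% and 4.54%, the shares in dermal fibroblasts were 0.227% for *Acan* and 99.8% for *Vcan*, and those of *Has1* and *Has2* were 1.50% and 97.6% in chondrocytes and 10.8% and 85.1% in dermal fibroblasts. Depth limits *Hapln3*, *Hapln4*, *Has1* and *Has3*, with at most 52 reads in either library.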
